A study of Mus musculus with 90 samples.

Results

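The aquaporins are the channel proteins through which water, and in some members glycerol, crosses cell membranes. The 10 genes described here, Aqp1, Aqp2, Aqp3, Aqp4, Aqp5, Aqp6, Aqp7, Aqp8, Aqp9 and Aqp11, were picked out of the 20414 genes of the expression table by their mouse Entrez Gene identifiers, and all 10 were listed. RNA was sequenced from 15 tissues of female C57BL/6 mice (C57BL/6J in the methods text) in estrus and in diestrus, 10 weeks old in the labels and somewhat younger in that text, with 3 libraries per tissue and phase and 90 in all. The phase was read from stained vaginal secretions, with serum estrogen and progesterone measured as a further aid. No mouse carried a transgene or received a drug, and the same mice gave all tissues of a phase, although the labels do not say which libraries came from the same one. The values are FPKM, fragment counts scaled to transcript length and to library size, which allows levels of different genes to be set side by side.

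Aqp1, Aqp2, Aqp4, Aqp5, Aqp6 and Aqp8 belong to the classical aquaporins, of which most are selective for water and Aqp6 is known for its passage of anions. Aqp3, Aqp7 and Aqp9 are aquaglyceroporins, which also let glycerol through, and Aqp11 is an unorthodox member that resides mainly inside the cell. In the kidney, Aqp1 serves the proximal tubule and the thin descending limb, while Aqp2 is moved into the apical membrane of collecting duct principal cells under vasopressin, and Aqp3 and Aqp4 form the basolateral exit of the same cells. In the uterus of rodents, aquaporins are known for the fluid that fills the lumen and swells the stroma over the cycle.

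Aqp2, Aqp5 and Aqp6 follow each other directly on chromosome 15, and Aqp7 and Aqp3 are next to each other on chromosome 4, in the RefSeq gene order of GRCm38.p6. The 250 bases before the start of 4 of these genes are shown because neighbours differed so much in the tissues where they were expressed. They come from the RefSeq promoter table of GRCm38.p6, which held windows for 9 of the 10 genes, and are written 5′ to 3′ on the strand of the gene. The windows lie at chr15:99578806-99579055 on the plus strand for Aqp2, chr15:99590778-99591027 on the plus strand for Aqp5, chr15:99600950-99601199 on the plus strand for Aqp6 and chr4:41098184-41098433 on the minus strand for Aqp3. Capitals mark matches on either strand to TATAAA, the TATA box, to TGACGT, the core of the cAMP response element, and to GGGCGG, the GC box.
Aqp2: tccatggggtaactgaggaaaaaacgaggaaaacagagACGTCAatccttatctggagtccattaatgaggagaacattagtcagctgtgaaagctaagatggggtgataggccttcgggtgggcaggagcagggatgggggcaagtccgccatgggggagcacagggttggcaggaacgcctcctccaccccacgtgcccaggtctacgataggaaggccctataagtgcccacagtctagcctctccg
Aqp5: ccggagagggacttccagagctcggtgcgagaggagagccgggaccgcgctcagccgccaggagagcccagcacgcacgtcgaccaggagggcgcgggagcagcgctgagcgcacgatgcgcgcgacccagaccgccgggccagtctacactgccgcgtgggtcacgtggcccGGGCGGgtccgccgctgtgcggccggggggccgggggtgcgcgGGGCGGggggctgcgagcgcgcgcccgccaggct
Aqp6: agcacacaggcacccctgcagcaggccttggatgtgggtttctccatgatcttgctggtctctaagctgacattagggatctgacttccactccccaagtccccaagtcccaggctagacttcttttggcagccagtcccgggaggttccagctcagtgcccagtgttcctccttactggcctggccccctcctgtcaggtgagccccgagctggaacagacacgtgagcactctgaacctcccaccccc
Aqp3: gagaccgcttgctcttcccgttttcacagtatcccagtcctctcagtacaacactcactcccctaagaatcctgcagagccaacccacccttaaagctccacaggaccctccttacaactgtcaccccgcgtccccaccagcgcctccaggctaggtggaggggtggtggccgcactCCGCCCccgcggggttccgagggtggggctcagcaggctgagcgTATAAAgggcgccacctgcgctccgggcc
The Aqp2 window held 1 match to TGACGT, on the opposite strand, and this motif occurred in 6.47% of the 32851 windows of the table. The Aqp5 window held 2 matches to GGGCGG, a motif found in 32.7% of all windows. The Aqp3 window held 1 match to TATAAA, present in 12.4% of all windows, and 1 to GGGCGG, while the Aqp6 window held none of the 3 motifs. The number of CG dinucleotides also differed along this stretch of chromosome 15, with 8 in the Aqp2 window, 38 in the Aqp5 window and 3 in the Aqp6 window against a median of 6 over all windows, and 98.1% of all windows held fewer than that of Aqp5. These matches describe the letters of the windows only.

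Before the values, some libraries have to be named. The table holds no read totals. In short genes with a single transcript, the lowest step of FPKM, scaled to 1 kilobase, was 0.0289 to 0.0888 in 89 libraries and 3.69 in BAT (brown adipose tissue) estrus replicate 3, which also listed 12048 genes at 0 against 2404 to 4820 elsewhere, so a low value in that library says little. Markers of other tissues or cells stood out in further libraries. Aorta diestrus replicate 3 had a summed FPKM of 1995 over 5 airway epithelium genes, of which 4 reached 1 FPKM in an aorta library, against 0.980 to 5.51 in the other aortas, and Scgb1a1, a secretory gene of the airways, reached 1047 FPKM there while Sftpc of the alveoli stayed at 1.24 FPKM. In aorta estrus replicate 1, the 5 smooth muscle genes summed to 11168 FPKM against 1169 to 1817, and the 5 white adipocyte genes to 273 FPKM against 2249 to 2590. Uterus estrus replicate 3 reached 155 FPKM of Foxj1, a regulator of motile cilia, and 2554 FPKM of Ovgp1, the secreted glycoprotein of the oviduct, against at most 4.62 and 126 FPKM in the other uteri. Duodenum estrus replicate 1 listed Gkn1, made by surface cells of the stomach, at 7108 FPKM against at most 1.92 FPKM in the other duodena. Ovary estrus replicate 3 had an oviduct epithelium sum of 1646 FPKM against 2.89 to 44.6 in the other ovaries and a cilia sum of 185 against 0.69 to 15.1, and spleen estrus replicate 2 a pancreatic acini sum of 3765 against 3.88 to 14.3. The smooth muscle sum of WAT (white adipose tissue) estrus replicate 1 was 1720 FPKM against 76.4 to 168, the fast muscle fibre sum of BAT diestrus replicate 3 was 1650 against 13.2 to 483, and the spleen markers Ms4a1 and Cd79a summed to 108 in vein estrus replicate 3 against 2.11 to 3.76. Smooth muscle sums were also high in stomach estrus replicate 1, at 5289 FPKM against 238 to 1725, and in duodenum estrus replicate 1, at 1958 against 192 to 535. Marker genes of each tissue had their highest mean in that tissue in all cases but the vein, where Myh11 and Acta2 of smooth muscle ranked 2 after the aorta and Nr2f2 ranked 3.

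All 10 aquaporins differed far more between tissues than between phases. Of the sum of squares of log2(FPKM + 1) over the 90 libraries, tissue took 78.9% for Aqp5 to 99.6% for Aqp6, and phase within tissue 0.0437% for Aqp6 to 5.26% for Aqp5. The kidney contained the most aquaporin RNA, with a sum over the 10 genes of 574 to 981 FPKM and a median of 655 FPKM, and the ovary the least, with 13.1 to 32.3 FPKM. The leading member changed from tissue to tissue. Aqp1 took the largest share of the sum in 9 tissues, from 40.6% in kidney to 90.2% in heart, and the others were led by Aqp9 in liver, Aqp4 in cerebrum and hypothalamus, Aqp3 in stomach, Aqp11 in duodenum and Aqp5 in uterus. Since these are whole tissues, fewer cells of a type and less RNA per cell cannot be told apart in any of these values.

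**Figure D1:**
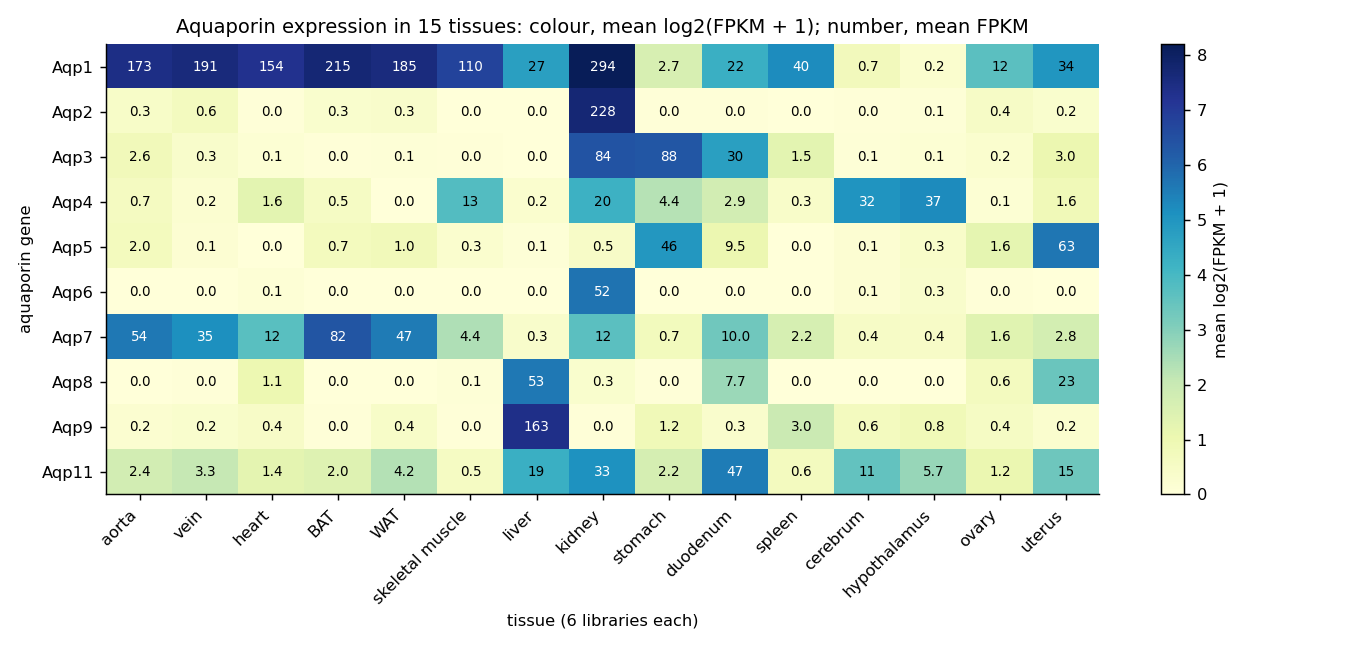
Mean expression of the 10 aquaporins (rows) in the 15 tissues (columns), 6 libraries per tissue with both phases together; the colour gives the mean of log2(FPKM + 1) and the number in each cell the mean FPKM. Aqp2 and Aqp6 are dark in the kidney column alone and Aqp9 in the liver column alone, while Aqp1 and Aqp11 reach a mean of at least 1 FPKM in 13 tissues each.

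A tissue whose 6 libraries all lay above every other library was found for 3 members, Aqp2, Aqp6 and Aqp9. The same held for 33.5% of the 17289 genes that reached a mean of 1 FPKM in some tissue, so this count is not particular to the family. The tissue specificity index tau, which runs from 0 for even expression to 1 for a single tissue, had a median of 0.84 over the 10 aquaporins and of 0.45 over those genes. It was highest for Aqp6, at 0.99, and lowest for Aqp1, at 0.39. In the order of mean log2(FPKM + 1), each tissue was compared with the next by a two-sided exact permutation test of 6 libraries against 6, and 11 of the 140 pairs of neighbours differed, each at the smallest p these tests can give, 0.00216, and an adjusted p of 0.0275. The tests treat the 6 libraries of a tissue as independent and set aside that tissues share animals.

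Aqp2, the vasopressin-regulated channel, and Aqp6, found in intracellular vesicles of acid-secreting intercalated cells, were renal transcripts. Aqp2 had a lowest, median and highest value of 104, 187 and 420 FPKM in kidney and stayed at or below 0.98 FPKM in all 84 libraries of other tissues. Aqp6 had 37.3, 51.4 and 68.9 FPKM in kidney and at most 0.47 FPKM elsewhere, and it was listed at 0 in all libraries of 8 tissues. The gap to the next tissue on the log2(FPKM + 1) scale was 7.02 for Aqp2, where the vein followed, and 5.32 for Aqp6, where the hypothalamus followed (adjusted p = 0.00722 over the 10 members for both, exact permutation test). Aqp5, which lies between them on chromosome 15, was at 0 to 1.74 FPKM in kidney. Across the 15 tissue means, Pearson's r of log2(FPKM + 1) between Aqp2 and Aqp6 was 0.99, a description that rests mainly on the 1 tissue they share.

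Aqp1, found on red cells and common in capillary endothelium, had a mean of at least 10 FPKM in 12 tissues, more than any other member (Aqp7, the next, in 6). Its kidney values of 262, 283 and 348 FPKM (lowest, median, highest) were followed by a group of tissues at similar levels, BAT at 131 to 334, vein at 144 to 242, WAT at 153 to 208, aorta at 105 to 192, heart at 132 to 193 and skeletal muscle at 81.4 to 145 FPKM, none of which differed from its neighbour in the order after adjustment. The first step in this order was below skeletal muscle, where the spleen followed at 16.1 to 64.2 FPKM (difference of 1.55 on the log2 scale, adjusted p = 0.0275). A further step lay between ovary, with 7.48 to 13.6 FPKM in 5 libraries and 21.9 FPKM in the one with oviduct transcripts, and stomach, with 0.61 to 7.32 FPKM, and the brain came last, with at most 1.59 FPKM in cerebrum and 0.36 FPKM in hypothalamus.

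Aqp7, the glycerol exit of adipocytes, was highest in BAT with 62.0, 75.4 and 123 FPKM, followed by aorta with 17.9, 62.2 and 78.9 FPKM, WAT with 39.9, 45.8 and 57.4 FPKM and vein with 25.2, 35.2 and 40.5 FPKM. Neighbours among these did not differ after adjustment, with an adjusted p of 0.0808 between WAT and vein as the lowest, and the step from vein to heart did, at 1.44 on the log2 scale. The vessels also contained adipocyte transcripts. The white adipocyte list summed to 2249 to 2590 FPKM in 5 aortas and to 1685 to 4754 FPKM in the veins. The 4 brown adipocyte genes summed to 2739 to 5095 FPKM in the same 5 aortas and to 487 to 1429 FPKM in the veins. Aorta estrus replicate 1, with only 273 FPKM of the white and 343 FPKM of the brown list, had the lowest Aqp7 of the aortas, 17.9 FPKM. The part of adipocytes in these levels was not tested. Kidney, where Aqp7 belongs to the last part of the proximal tubule, followed heart with 10.3 to 13.7 FPKM. Over the 15 tissue means, r between Aqp1 and Aqp7 was 0.82.

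Aqp9, the glycerol entry of hepatocytes, was the most uniform of the highly expressed members in its main tissue, with 150, 164 and 176 FPKM in liver. The spleen followed with 1.60 to 4.89 FPKM, a gap of 5.42 on the log2 scale (adjusted p = 0.00722 over the 10 members, exact permutation test), and the spleen was in turn above the hypothalamus at 0.61 to 1.01 FPKM (adjusted p = 0.0275 over the 140 pairs). Aqp8, a channel for water and ammonia in hepatocytes and gut epithelium, also led in liver, with 31.7, 41.9 and 115 FPKM. The gap of 2.21 on the log2 scale to the uterus did not pass (adjusted p = 0.0893 over the 10 members), since the 6 uteri ranged from 0.06 to 59.3 FPKM. Duodenum had 1.24 to 22.4 FPKM of Aqp8 and all other tissues had at most 1.52 FPKM.

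Aqp4, the channel of astrocyte endfeet, had 33.6, 36.3 and 40.4 FPKM in hypothalamus and 23.5, 32.2 and 36.5 FPKM in cerebrum, which did not differ after adjustment (gap of 0.22 on the log2 scale, adjusted p = 0.0563 over the 10 members). Kidney with 8, 17.3 and 37.5 FPKM and skeletal muscle, where fast fibres carry the protein, with 10.4, 12.2 and 16.3 FPKM came next. Only below skeletal muscle did neighbours differ, by 1.5 on the log2 scale towards the stomach at 1.52 to 8.17 FPKM (adjusted p = 0.0275). The heart, the other striated muscle, had 0.77 to 3.34 FPKM.

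The 3 remaining members had their highest means in gut, kidney and uterus. Aqp3 had 44.7, 75.2 and 171 FPKM in stomach and 56.1, 84.0 and 101 FPKM in kidney, and their gap of 0.05 on the log2 scale was within the spread of either (p = 0.859, exact permutation test). Duodenum followed with 13.3 to 78.6 FPKM, and spleen, with 1.29 to 1.74 FPKM, was below it by 3.42 on the log2 scale (adjusted p = 0.0275). Aqp3 and its chromosome 4 neighbour Aqp7 shared kidney and duodenum, but in BAT, where Aqp7 was highest, Aqp3 was at most 0.1 FPKM. Aqp5, the apical channel of many secretory glands, led in uterus with 22.1, 51.3 and 155 FPKM and in stomach with 3.79, 33.7 and 123 FPKM, which overlapped (adjusted p = 0.471 over the 10 members), while the ovary followed with 0.51 to 1.55 FPKM and 4.94 FPKM in estrus replicate 3, the library with oviduct transcripts. Aqp11 was highest in duodenum with 22.6, 47.0 and 62.5 FPKM, then kidney with 28.0, 32.7 and 38.3 FPKM, liver with 14.6, 18.7 and 22.2 FPKM and cerebrum with 8.5, 10.2 and 14.2 FPKM. Kidney was above liver and liver above cerebrum in every library, and both steps passed (0.80 and 0.75 on the log2 scale, adjusted p = 0.0275 for each).

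The genes with the most similar profile over the 15 tissue means were, by Pearson's r of log2(FPKM + 1), Apela, Gm4131 and Akr1c21 for Aqp2 (0.995 to 0.996) and Slc22a12, the urate transporter, Oxgr1, a receptor for oxoglutarate, and Slc12a1, the cotransporter of the thick ascending limb, for Aqp6 (0.999 each). For Aqp7 they were Pnpla2, the first lipase of fat stores, Gpx4 and Mcur1 (0.921 to 0.941), and for Aqp9 Mst1, F9, a clotting factor of the liver, and 1300017J02Rik (0.984 to 0.990). Aqp8 had Cyp3a59, Rdh9 and Urah (0.911 to 0.954), Aqp5 had Bnipl, Il1f8 and Cxcl17 (0.984 to 0.989), and Aqp3 had B4galnt3, Phlda2 and Lrrc66 (0.947 to 0.978). Aqp11 had Pde9a, Nlrp6 and Slc46a1, the folate carrier of the duodenum (0.860 to 0.910), Aqp1 had Angptl2, Nmnat3 and Scarf1 (0.897 to 0.902), and Aqp4 had Macrod2, Cpeb4 and Mchr1 (0.846 to 0.850). The points share libraries and these are descriptions over 15 means.

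Estrus was then compared with diestrus in each tissue. A member entered the comparison of a tissue if its mean over the 6 libraries was at least 1 FPKM, which held for 66 of the 150 pairs of a member and a tissue and left 84 untested. With limma on log2(FPKM + 1), a pair was called when its adjusted p was at most 0.05 and its log2 fold change was 1 or more in either direction. None of the 66 was called, where 2 of 185469 tests over all genes were, or 0.00108%. Without the intensity trend none was called either, while one limma fit of all 90 libraries, which gives every tissue the same spread, called 4 of them and 1.65% of all tests. The lowest adjusted p of a member was 0.135, for Aqp1 in skeletal muscle. An unadjusted p under 0.05 was reached by 11 of the 66 pairs, or 16.7%, against 7.84% over all genes. The values of estrus and diestrus did not overlap in 7 pairs, or 10.6%, against 15.0% of all tests, with estrus higher in 4, against 5.66% of all tests, and lower in 3, against 9.31%. With 7 of the libraries that stood apart left out, chosen after seeing the data, 11 of 60 pairs did not overlap, 12 had an unadjusted p under 0.05 and 0 were called. Aorta estrus replicate 1, BAT diestrus replicate 3 and vein estrus replicate 3 were among the libraries kept in that setting. The shares over all genes were not taken for that setting, and smaller groups overlap less often by construction. These counts therefore cannot be set against the shares above. Lower in estrus were 57.6% of the pairs, close to the 53.5% over all genes, and the median log2 fold change of the pairs was -0.07. Fold changes are estrus minus diestrus on the log2(FPKM + 1) scale, so that changes of low values come out too small, and with 3 libraries against 3 an exact permutation test of 1 gene cannot give a p below 0.1.

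**Figure D2:**
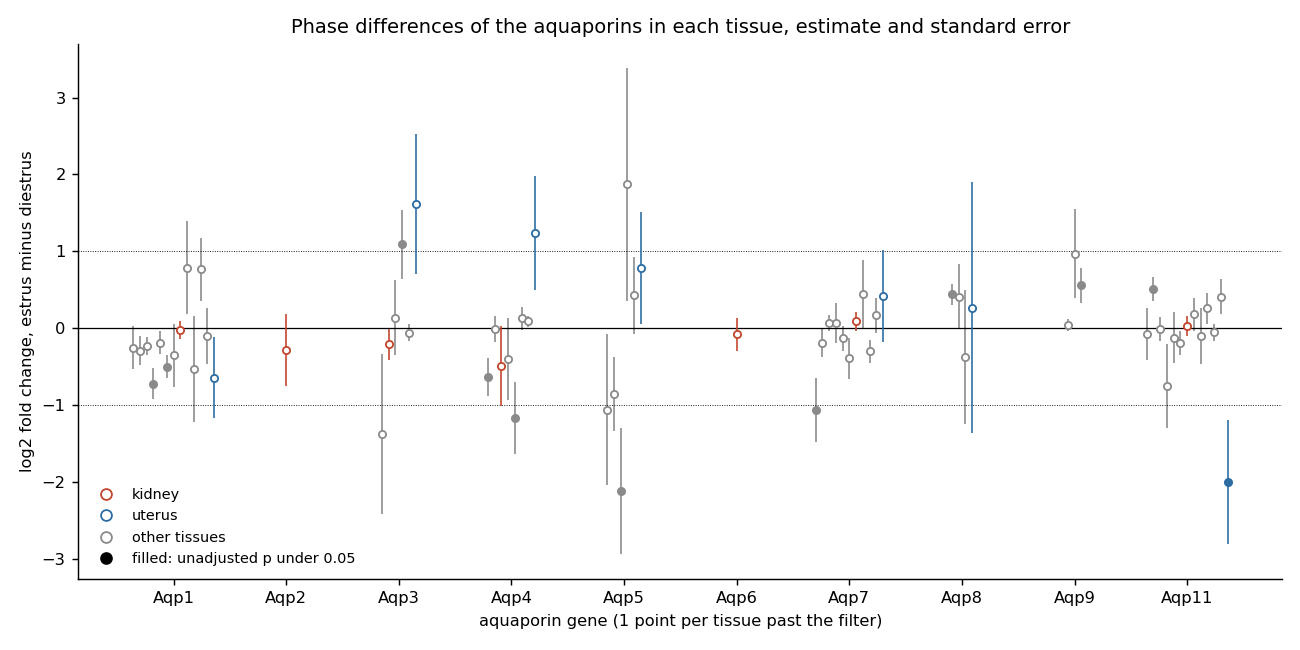
Log2 fold changes between estrus and diestrus (vertical axis, estrus minus diestrus on the log2(FPKM + 1) scale) for each aquaporin (horizontal axis) in each tissue where its mean was at least 1 FPKM; points are estimates of limma, bars are standard errors, and dotted lines mark a change of 1 in either direction. Kidney points lie between -0.49 and 0.09 with standard errors of 0.12 to 0.52, uterus points between -2.0 and 1.61 with standard errors of 0.53 to 1.63, and 11 points are filled for an unadjusted p under 0.05.

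In kidney, 7 members were tested and none was called or had an unadjusted p under 0.05, which 2.87% of all genes did and 0% were called. All 7 had overlapping phases, where 7.98% of the genes of this tissue did not overlap, 5 were lower and 2 higher in estrus, and their median log2 fold change was -0.08 against -0.01 over all genes. Aqp1 was listed in estrus at 283, 281 and 309 FPKM and in diestrus at 262, 348 and 283 FPKM. These 6 values differ by at most 1.33 times, and the fold change was -0.02 with a standard error of 0.12 (limma, adjusted p = 1). Aqp7 was equally even, with 13.7, 10.6 and 12.5 FPKM in estrus and 10.3, 11.9 and 11.9 FPKM in diestrus (log2 fold change of 0.09 ± 0.12, SE). Aqp11, which serves the endoplasmic reticulum of proximal tubule cells, had 30.9, 33.3 and 35.6 FPKM in estrus and 32.1, 28.0 and 38.3 FPKM in diestrus (0.03 ± 0.13).

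The members of the collecting duct varied more between mice. Aqp2 was at 104, 191 and 322 FPKM in estrus and 183, 420 and 150 FPKM in diestrus, a range of 4.04 times that crossed the phases. Its log2 fold change of -0.28 had a standard error of 0.47 (limma, adjusted p = 1), and leaving out single libraries moved it between -0.68 and 0.16. The 8 other genes of the principal cell list, among them the vasopressin receptor Avpr2, summed to 303, 281 and 381 FPKM in estrus and 344, 294 and 255 FPKM in diestrus and did not order the libraries as Aqp2 did. Aqp3 had 56.1, 82.4 and 99.0 FPKM in estrus and 101, 85.7 and 82.1 FPKM in diestrus (-0.21 ± 0.20), with estrus replicate 1 below all others. Aqp4 had 37.5, 9.88 and 8 FPKM in estrus and 15.8, 30.9 and 18.8 FPKM in diestrus (-0.49 ± 0.52). The kidneys with the most Aqp4, estrus replicate 1 and diestrus replicate 2, also had the highest sums of the 4 urothelium genes, 14.8 and 35.3 FPKM against 1.54 to 5.16 FPKM in the other 4, and the part of such tissue in the result was not tested. Aqp6, the intercalated cell member, had 48.0, 37.3 and 68.9 FPKM in estrus and 57.4, 54.7 and 46.3 FPKM in diestrus (-0.08 ± 0.21), while the 6 genes of the intercalated cell list summed to 97.0 to 150 FPKM. Aqp5, Aqp8 and Aqp9 stayed under the filter in kidney, with at most 1.74, 0.59 and 0.07 FPKM.

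**Figure D3:**
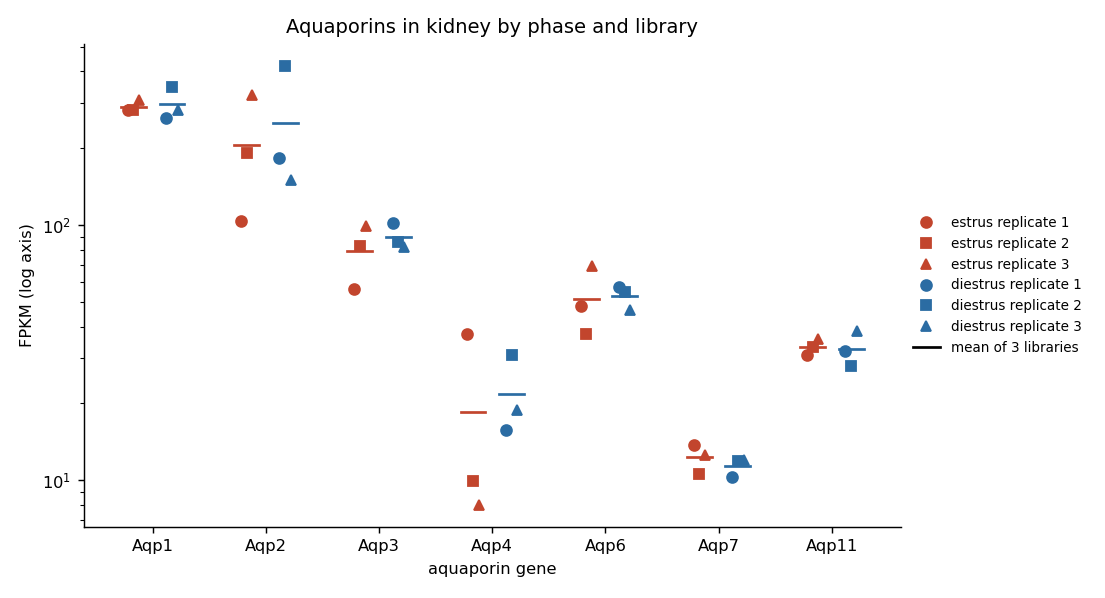
FPKM (log axis) of the 7 aquaporins tested in kidney, with estrus in red and diestrus in blue, 1 symbol per library with its shape giving the replicate number, and a line at the mean of each 3 libraries. The symbols of both phases overlap for every gene, tightly for Aqp1, Aqp7 and Aqp11 and over 4.04 times for Aqp2 and 4.69 times for Aqp4.

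The 22 genes of renal water and salt handling fixed as the pathway list were all tested in kidney. Of these, 14 were higher and 8 lower in estrus, and none was called. In limma 1 had an unadjusted p under 0.05, against 2.87% of all genes. Estrus was higher without overlap in 2, against 7.98% of all genes without overlap in either direction. The median log2 fold change was 0.04, against -0.01 over all genes. Slc12a1 had 378, 341 and 281 FPKM in estrus and 341, 487 and 325 FPKM in diestrus (-0.19 ± 0.18, SE). Slc12a3, the thiazide-sensitive cotransporter of the distal tubule, had 242, 244 and 292 FPKM in estrus and 364, 156 and 281 FPKM in diestrus (0.04 ± 0.28). Both overlapped between the phases and had an adjusted p of 1 in limma.

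In uterus, 7 members were tested, and their values scattered widely within each phase. None was called in limma, where 0% of all genes were, and Aqp11 alone had an unadjusted p under 0.05, as 3.74% of all genes did. Estrus was higher for 5 and lower for 2, 1 of them without overlap where 7.91% of the genes of the tissue had none, and the median log2 fold change was 0.42 against -0.07 over all genes. Aqp5, which in rodents lines the uterine glands and lumen, was at 155, 77.6 and 22.1 FPKM in estrus and 70.9, 23.0 and 31.7 FPKM in diestrus. The highest 2 values belonged to estrus, and so did the lowest, in replicate 3, the library that carried oviduct and cilia transcripts. The log2 fold change was 0.78 with a standard error of 0.73 (limma, adjusted p = 0.897), and 1.53 with a standard error of 0.55 and an adjusted p of 1 without estrus replicate 3. Leaving out single libraries moved it between 0.15 and 1.53. Estrus replicate 1, with the most Aqp5, had a sum of 2.46 FPKM over the 5 uterine gland genes, against 29.4 to 133 in the other uteri. Its smooth muscle sum was 3690 FPKM, against 659 to 2641. The part of the cell makeup in the Aqp5 difference was not tested.

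Aqp8 ranged over the same libraries from 59.3, 23.4 and 0.06 FPKM in estrus to 49.6, 2.39 and 4.15 FPKM in diestrus. Both phases thus held a high library and a low one, and the fold change of 0.27 had a standard error of 1.63 (adjusted p = 0.978). Its sign turned with the pseudocount and with 4 of the 6 libraries left out. Estrus replicate 1, the highest for Aqp5 and Aqp8, also listed Clca1, a secreted regulator of chloride conductance, at 1718 FPKM against 0.85 to 96.5 FPKM in the other uteri.

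Aqp11 had the reverse order, with 1.07, 9.58 and 5.17 FPKM in estrus and 6.63, 45.8 and 23.3 FPKM in diestrus. The lowest value was in estrus and the 2 highest were in diestrus, but diestrus replicate 1 lay below estrus replicate 2. The difference of -2.0 had a standard error of 0.81 and an unadjusted p of 0.042, which became 0.897 after adjustment over the 13705 genes tested. Pgr, the progesterone receptor, was at 11.6, 68.8 and 10.2 FPKM in estrus and 53.5, 98.7 and 32.7 FPKM in diestrus, and estrus replicates 1 and 3, the lowest for Aqp11, were also the lowest for Pgr. In the fit of all 90 libraries, which called 6.63% of all genes in uterus, the difference in Aqp11 was called (adjusted p = 0.000156), as were those of Aqp3 and Aqp4 described next (adjusted p = 0.0177 and 0.037). The part of the cell makeup of the pieces in the Aqp11 difference was not tested.

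Aqp3 was the uterine member without overlap, with 0.67, 0.68 and 15.9 FPKM in estrus and 0.35, 0.19 and 0.04 FPKM in diestrus. A single library passed 1 FPKM, estrus replicate 3, and the difference of 1.61 had a standard error of 0.91 (adjusted p = 0.897). In that library the 6 squamous epithelium genes, which include Krt5 and Krt14 of stratified epithelia, summed to 2242 FPKM against 0.51 to 67.2 FPKM in the other 5, the 5 cilia genes to 610 FPKM against 1.92 to 6.16 FPKM and the 6 neutrophil genes to 120 FPKM against 0.78 to 8.77 FPKM. Aqp4 followed the same library, with 0.94, 0.24 and 7.70 FPKM in estrus and 0.12, 0.27 and 0.12 FPKM in diestrus (1.24 ± 0.74, adjusted p = 0.897). Without it, both genes fell under the filter. Aqp1 moved the other way there, with 40.2, 37.0 and 9.53 FPKM in estrus and 42.6, 35.3 and 38.6 FPKM in diestrus. The difference of -0.64 ± 0.53 became -0.00 ± 0.23 without estrus replicate 3, while the 6 endothelium genes summed to 40.0 FPKM in that library and 95.9 to 249 FPKM in the others. Aqp7 had 0.71, 2.52 and 7.81 FPKM in estrus and 2.34, 2.09 and 1.13 FPKM in diestrus (0.42 ± 0.60), and turned to -0.19 without the same library. Aqp2, Aqp6 and Aqp9 were under the filter, with at most 0.43 FPKM in any uterus.

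**Figure D4:**
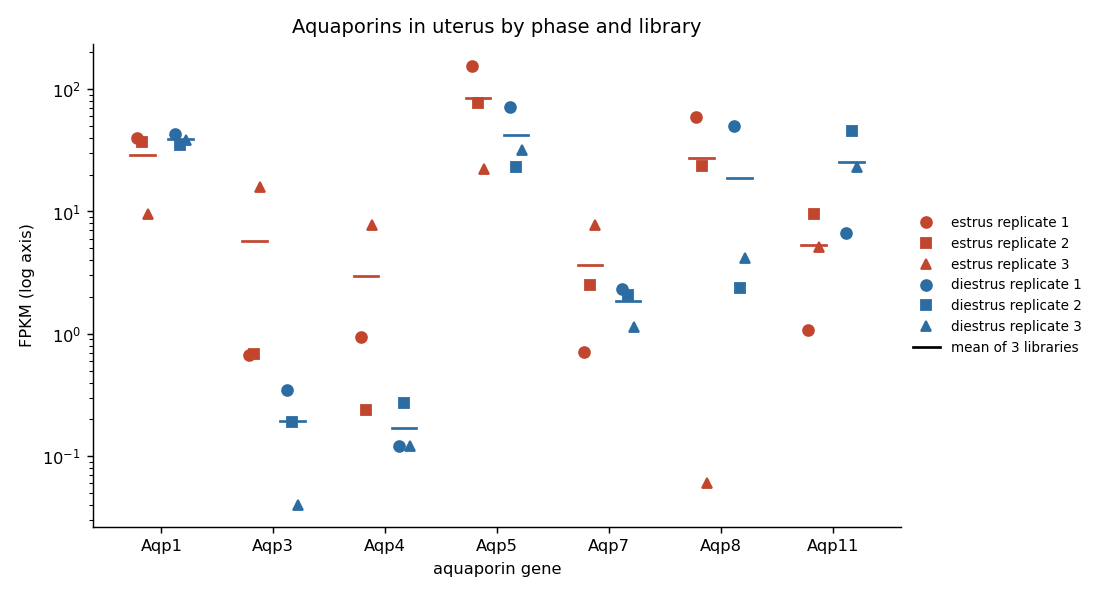
FPKM (log axis) of the 7 aquaporins tested in uterus, with estrus in red and diestrus in blue, 1 symbol per library with its shape giving the replicate number, and a line at the mean of each 3 libraries. The red triangle, estrus replicate 3, stands above all other symbols for Aqp3, Aqp4 and Aqp7 and below them for Aqp1, Aqp5 and Aqp8, and only Aqp3 has no overlap of the phases.

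Of the 12 genes of uterine fluid transport on the pathway list, 11 were tested in uterus, 7 higher and 4 lower in estrus with none called in limma. Of these, 1 had an unadjusted p under 0.05, against 3.74% of all genes, 2 were lower in estrus without overlap, against 7.91% without overlap in either direction, and the median log2 fold change was 0.29 against -0.07. Clca1 had the highest mean and a difference of 2.93 ± 1.95, which rested on the single library named above (adjusted p = 0.897). Car2, a carbonic anhydrase, had 491, 269 and 104 FPKM in estrus and 358, 155 and 136 FPKM in diestrus (0.29 ± 0.62, adjusted p = 0.931).

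Over the 13 tissues in which Aqp1 was tested, kidney and uterus included, it was lower in estrus in 11 and higher in 2, spleen and stomach, with a median log2 fold change of -0.25, where 55.1% of all genes tested in the same tissues were lower. The phases did not overlap in BAT, where the estrus values of 170, 184 and 131 FPKM stood below the diestrus values of 252, 220 and 334 FPKM (-0.72 ± 0.20, unadjusted p = 0.0107, adjusted p = 0.251 in limma). Of all genes in BAT, 30.1% did not overlap and 12.8% had an unadjusted p under 0.05. The 6 endothelium genes moved with Aqp1, at 232, 268 and 196 FPKM in estrus and 349, 356 and 406 FPKM in diestrus, and without the shallow estrus replicate 3 the difference was -0.58 ± 0.18. It was -0.55 ± 0.18 without diestrus replicate 3, the library with the highest Aqp1 and the muscle transcripts. Skeletal muscle had 93.1, 97.3 and 81.4 FPKM in estrus and 145, 101 and 142 FPKM in diestrus, again without overlap (-0.50 ± 0.15, unadjusted p = 0.0114, adjusted p = 0.135). In that tissue 26.2% of all genes did not overlap and 20.8% had an unadjusted p under 0.05. The endothelium genes summed to 105, 87.8 and 71.9 FPKM in estrus and 115, 119 and 116 FPKM in diestrus, and the 6 erythroid genes to 100 to 459 FPKM in estrus and 2519, 214 and 2112 FPKM in diestrus, with the highest Aqp1 in the latter 2 high libraries. The part of endothelium and blood in the differences of Aqp1 was not tested. Since the tissues share animals, these are not 13 independent comparisons.

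Aqp7 was lower in estrus in the aorta, with 17.9, 60.9 and 33.8 FPKM against 70.0, 63.5 and 78.9 FPKM in diestrus (-1.06 ± 0.42, unadjusted p = 0.0458, adjusted p = 0.933), without overlap, in a tissue where 11.9% of all genes did not overlap and 3.11% had an unadjusted p under 0.05. The difference was -0.62 ± 0.24 without estrus replicate 1, the library with few adipocyte transcripts. In BAT and WAT, where the gene serves fat cells, its log2 fold changes were 0.07 ± 0.26 and -0.13 ± 0.16, both within the spread between libraries. The 10 genes of glycerol handling went different ways in different tissues, and none was called in limma in any of the following. In WAT 1 was higher and 9 lower in estrus, with a median of -0.16 against 0.06 over all genes, and 1 had an unadjusted p under 0.05, against 5.97% of all genes. In liver 9 were tested, 4 higher and 5 lower, with a median of -0.10 against -0.01, and 2 had an unadjusted p under 0.05, against 5.60%. In BAT 7 were higher and 3 lower, with a median of 0.24 against -0.12, and 6 had an unadjusted p under 0.05, against 12.8%, while 7 did not overlap, against 30.1%. In vein 8 were higher and 2 lower, with a median of 0.40 against -0.10. There 3 had an unadjusted p under 0.05, against 12.1% of all genes, and 4 did not overlap, against 18.2%. In uterus 9 were higher and 1 lower, with a median of 0.46 against -0.07. There 1 had an unadjusted p under 0.05, against 3.74%, and 1 did not overlap, against 7.91%. In aorta all 10 were lower, with a median of -0.95 against -0.05. There 0 had an unadjusted p under 0.05, against 3.11% of all genes, and all overlapped, where 11.9% of all genes did not. The aorta library low in adipocyte transcripts had the lowest sum of the list, 682 FPKM against 6343 to 8619. The white adipocyte genes were also all higher in estrus in vein (5 tested, median of 0.46) and in uterus (4 tested, 1.13). In BAT 1 of these 5 genes was higher and 4 were lower. The part of adipocytes in the glycerol list differences was not tested. The 3 most abundant in WAT were Pnpla2 (-0.33 ± 0.24), Dgat2, which makes triglycerides (-0.15 ± 0.23), and the hormone-sensitive lipase Lipe (-0.19 ± 0.18), and in liver Pck1 of gluconeogenesis (0.01 ± 0.27), Dgat2 (-0.26 ± 0.14) and Gpd1, glycerol phosphate dehydrogenase (0.35 ± 0.10, unadjusted p = 0.0111, adjusted p = 0.811). Liver Aqp9, on which hepatic glycerol uptake depends, had 169, 168 and 160 FPKM in estrus and 176, 150 and 157 FPKM in diestrus (0.04 ± 0.08). Liver Aqp8 had 115, 45.6 and 31.7 FPKM in estrus and 40.0, 42.9 and 40.9 FPKM in diestrus (0.41 ± 0.42), with estrus replicate 1 apart from 5 libraries that lay within 31.7 to 45.6 FPKM.

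In stomach, Aqp5 was lower in estrus, with 18.8, 33.9 and 3.79 FPKM against 33.5, 123 and 62.9 FPKM in diestrus. The phases overlapped by the 1 value of estrus replicate 2 above diestrus replicate 1, and the difference of -2.12 ± 0.82 had an unadjusted p of 0.0418, reached by 7.38% of all genes in stomach, and an adjusted p of 0.672. Without estrus replicate 3 it was -1.31 ± 0.59. The 6 squamous epithelium genes, which mark the forestomach, summed to 4287, 82.6 and 6239 FPKM in estrus and 933, 337 and 9.34 FPKM in diestrus. The estrus libraries with the highest sums, replicates 1 and 3, had the lowest Aqp5. The remaining libraries did not follow this order. Diestrus replicate 2, with a sum of 337, had 123 FPKM of Aqp5, and diestrus replicate 3, with a sum of 9.34, had 62.9 FPKM. The 5 parietal cell genes summed to 3908, 7467 and 1223 FPKM in estrus and 4639, 4036 and 4897 FPKM in diestrus. Aqp3, at 77.0, 44.7 and 171 FPKM in estrus and 98.8, 61.1 and 73.5 FPKM in diestrus (0.14 ± 0.49), was highest where the squamous sum was highest. It was lower in estrus replicate 1, with a squamous sum of 4287, than in diestrus replicate 1, with 933. The part of the sampled region in these differences was not tested.

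**Figure D5:**
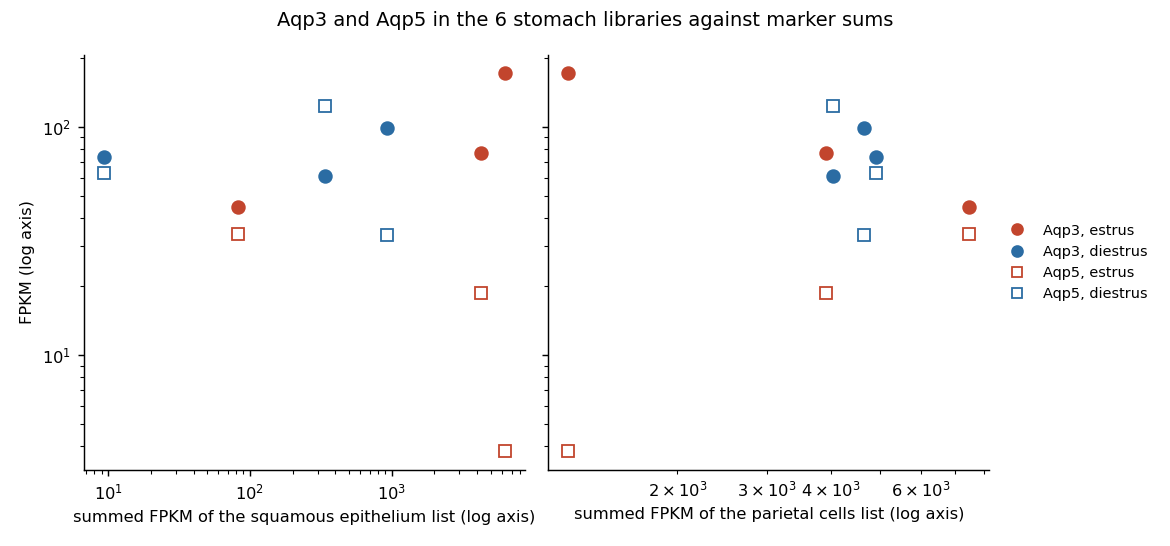
FPKM of Aqp3 (filled circles) and Aqp5 (open squares) in the 6 stomach libraries (vertical log axis, estrus red and diestrus blue) against the summed FPKM of the squamous epithelium list (left) and of the parietal cell list (right), both on log axes. The library with the highest squamous sum, 6239, has the highest Aqp3, 171 FPKM, the lowest Aqp5, 3.79 FPKM, and the lowest parietal sum, 1223.

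The duodenum had 7 members tested. Aqp3 was higher in estrus without overlap, with 78.6, 25.2 and 26.0 FPKM against 13.3, 17.5 and 21.2 FPKM in diestrus (1.09 ± 0.45, unadjusted p = 0.0472, adjusted p = 0.368), in a tissue where 26.6% of all genes did not overlap and 13.5% had an unadjusted p under 0.05. Aqp5 was listed at 56.8 FPKM in estrus replicate 1 and at 0 to 0.24 FPKM in the other 5, and Aqp11 had its lowest value, 22.6 FPKM, in the same library against 45.6 to 62.5 FPKM elsewhere. This is the duodenum that listed Gkn1 at 7108 FPKM, and Atp4a, the proton pump of parietal cells, stayed at 0.13 FPKM in it. Without it the Aqp3 difference was 0.56 ± 0.21 with the phases still apart. Aqp4 had 0.85, 0.36 and 3.48 FPKM in estrus and 5.52, 2.69 and 4.31 FPKM in diestrus (-1.17 ± 0.47, unadjusted p = 0.0439, adjusted p = 0.368), and it was the duodenal member called in the fit of all 90 libraries (adjusted p = 0.047), which called 4.32% of all genes there.

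The remaining pairs with an unadjusted p under 0.05 were of low level. In heart, Aqp8 had 1.46, 1.13 and 1.52 FPKM in estrus and 0.48, 0.82 and 0.95 FPKM in diestrus, without overlap (0.44 ± 0.14, adjusted p = 0.792), and Aqp4 had 0.77, 1.00 and 1.16 FPKM against 3.34, 1.08 and 2.13 FPKM (-0.63 ± 0.25, adjusted p = 0.793), in a tissue where 11.7% of all genes did not overlap and 6.10% had an unadjusted p under 0.05. Aqp11 in vein was higher in estrus in every library, with 3.93, 4.65 and 3.66 FPKM against 2.30, 2.27 and 3.16 FPKM (0.51 ± 0.16, adjusted p = 0.412), where 18.2% of all genes did not overlap and 12.1% had an unadjusted p under 0.05. Aqp9 in spleen had 3.61, 4.89 and 2.70 FPKM in estrus and 1.60, 3.30 and 1.82 FPKM in diestrus (0.56 ± 0.23, adjusted p = 0.93), where 3.51% of all genes had an unadjusted p under 0.05. The 6 neutrophil genes, whose cells are known to carry Aqp9, summed to 425, 1356 and 422 FPKM in the same estrus spleens and 173, 263 and 275 FPKM in diestrus, and their part in the difference was not tested. Without estrus replicate 2, which also carried the pancreatic transcripts, the difference was 0.39 ± 0.24. Aorta diestrus replicate 3, with its airway transcripts, listed Aqp3 at 15.0, Aqp5 at 11.3 and Aqp4 at 2.86 FPKM, against at most 0.25, 0.17 and 0.41 FPKM in the other 5 aortas. In the brain, where Aqp4 is the main member, its phase differences were 0.09 ± 0.07 in hypothalamus and 0.13 ± 0.15 in cerebrum, with adjusted p of 0.58 and 1.

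Whether the phase difference of a member depended on the tissue was tested as an interaction in 1 limma model of all 90 libraries. None of the 10 passed an adjusted p of 0.05, where 3.88% of 15226 genes did. The lowest values were those of Aqp11 (unadjusted p = 0.0102, adjusted p = 0.12) and Aqp9 (unadjusted p = 0.0368, adjusted p = 0.225), the other 8 having an unadjusted p of 0.0715 or more. Without the libraries numbered 2, Aqp9 passed (adjusted p = 0.00141), as did 8.13% of all genes.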

How the data were processed

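RNA of each tissue was sequenced on BGISEQ-500. The authors filtered reads with SOAPnuke, aligned them with Bowtie2 2.2.5 to GRCm38.p5, quantified genes with RSEM 1.2.8 and deposited FPKM without counts. The FPKM were used as deposited. Whole reads could not be recovered from the steps between low values, which were whole within 0.2 reads, up to 10 reads, in 23.7% to 63.6% of values, so no count test was run. Of 20414 Entrez identifiers, 20265 had a symbol in the RefSeq table of GRCm38.p6. No pair of libraries held identical values.

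Each tissue was fitted on log2(FPKM + 1), for genes whose mean over its 6 libraries reached 1 FPKM, with limma 3.58.1 in R 4.3.3 (intensity trend, no covariates, Benjamini-Hochberg adjustment within the tissue). Tests were checked on simulated data. Tissues were compared by exact permutation in numpy 2.4.6 (Python 3.11.15, pandas 2.3.3). A p-value sets a difference against the spread between these libraries. Alternatives covered pseudocount, filter, scale, model, block and libraries left out. Members, gene lists and tests were chosen with earlier results of these data known. Named were all members in every tissue, pairs in kidney and uterus, other pairs with an unadjusted p under 0.05, the 3 most abundant genes of a pathway list, of which 1 is not reported here, and the 3 genes most like each member. Protein sequences were not used here.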

Additional observations from a re-analysis of the deposited data

Results flagged for a closer look

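In 66 groups of 6 libraries, 1 library of a member stood far from the other 5 in 11, by a gap past Dixon's 95% limit. Chance gives about 1 group in 20, and the groups share libraries, so these cases are not independent.

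Uterus estrus replicate 3 held 3 of them, with Aqp3 at 15.89, Aqp4 at 7.7 and Aqp1 at 9.53 FPKM, and its marker sums stand in the report. Duodenum estrus replicate 1 held another 3, with Aqp3 at 78.64, Aqp5 at 56.84 and Aqp11 at 22.62 FPKM. In the aorta, diestrus replicate 3 stood apart in Aqp3, at 15.04, and Aqp5, at 11.3 FPKM, and estrus replicate 1 in Aqp1, at 105.46 FPKM. Aqp3 at 56.1 FPKM in kidney estrus replicate 1 and Aqp8 at 115.19 FPKM in liver estrus replicate 1 were the others.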

How the results depend on the processing

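The count of 0 members called was also found with every alternative that kept limma within each tissue and both limits. One fit of all 90 libraries, which gives each tissue the average spread, called 4 pairs. These were Aqp3 (1.61), Aqp4 (1.24) and Aqp11 (-2.0) in uterus and Aqp4 in duodenum. That fit called 6.63% of all genes in uterus and 4.32% in duodenum. In the main fits within each tissue, 11 pairs had an unadjusted p under 0.05 in limma, where 7.84% of all tests did. Pairs without overlap numbered 13 with no filter or with one at 0.1 FPKM, and 9 with 4 libraries that stood apart left out (aorta diestrus 3 or estrus 1, BAT estrus 3, duodenum estrus 1 and uterus estrus 3, chosen after seeing the data), where 0 were called. With aorta diestrus 3, BAT estrus 3, duodenum estrus 1 and uterus estrus 3 and also ovary estrus 3, spleen estrus 2 and WAT estrus 1 left out, likewise chosen after seeing the data, 11 of 60 pairs did not overlap and 0 were called. Smaller groups overlap less often by construction, and the shares over all genes were not taken for these counts of pairs without overlap. Of the 628 alternative values, 578 kept their direction and side of the threshold or, for counts, stayed within a set range of the main count.

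With single libraries left out, log2 fold changes in kidney ranged from -0.11 to 0.10 for Aqp1, -0.68 to 0.16 for Aqp2, -0.39 to 0.02 for Aqp3, -0.31 to 0.13 for Aqp6 and -0.08 to 0.14 for Aqp11, and in uterus from -0.19 to 0.99 for Aqp7 and -0.91 to 2.00 for Aqp8, which was -0.41 at a pseudocount of 0.1. Aqp3 and Aqp4 in uterus had no value without estrus replicate 3, since they fell under the filter. The count of neighbouring tissues that differ was 11 without BAT estrus replicate 3 and 0 without any 1 replicate number, where the groups were smaller and the smallest possible p was larger. In these smaller groups the gaps of Aqp2 (6.72 to 7.37), Aqp6 (5.22 to 5.41) and Aqp9 (5.31 to 5.64) no longer passed either. The same held in estrus alone (6.83, 5.22 and 5.16) and in diestrus alone (7.22, 5.42 and 5.68), where 0 neighbours differed. The gap of Aqp3 ranged from -0.26 to 0.23 and was -0.07 with median-ratio scaling and -0.12 in estrus alone, and that of Aqp5 was -0.76 in diestrus alone. Median-ratio scaling brought the gaps of Aqp7 (0.88) and Aqp8 (3.23) past the threshold. Interactions ranged from 0 to 1, the 1 being Aqp9 without replicate 2 (adjusted p = 0.00141, where 8.13% of genes passed). The causes of these changes were not tested unless named.

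The replicate numbers did not pair the libraries, with no tissue in which every correlation of same-numbered deviations was over 0.1 (range -0.57 to 0.47). With the number as a block, 0 members were called, 0 interactions passed, no call changed, and Aqp11 in uterus stayed at -2.0 (adjusted p = 0.866). The methods text gives 1 approximate number of reads for every sample, and the depth of single libraries is unknown. In BAT estrus replicate 3 a value near 0 cannot be told from low depth.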

Other observations

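The table lists 2 further genes of the family. Aqp12, a member of pancreatic acinar cells, was at 2.2, 1.21 and 0.57 FPKM in the estrus ovaries and 0.64, 1.35 and 1.01 FPKM in the diestrus ovaries. Spleen estrus replicate 2, whose 6 pancreatic acini genes summed to 3765 FPKM against 3.88 to 14.3 in the other spleens, listed it at 2.96 FPKM, and every other library outside the ovary at 0.16 FPKM or less. Mip, the lens fibre member, was at most 0.42 FPKM, with its highest values in spleen.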
